A study of Mus musculus with 18 samples.

Results

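The regions described here are the Transient GATA6-only poised enhancers, 2111 of the 42403 genomic regions at which GATA6 was found bound during its induction in mouse embryonic stem (ES) cells. They were selected on measured values: GATA6 ChIP-seq signal that rose and was lost again over the time course (the Transient cluster), the absence of called peaks of OCT4, SOX2 and ESRRB, here the pluripotency transcription factors (PTFs), the absence of a called SOX17 peak, and a histone mark signature of ES cells that the authors classed as a poised enhancer. These values chose the regions and are therefore given as their definition and not tested. The classes were made by the authors from bulk cultures, in which fewer bound cells and less binding per cell cannot be told apart.

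The series holds 18 MNase-seq libraries, which map DNA protected by nucleosomes, in 6 groups of 3: untreated cells (d0) and cells after 8, 16, 24, 48 and 96 h of doxycycline (Dox) at 1 ug/mL. All groups share the KH2 ES cell line of C57BL/6 x 129/Sv genotype, which carries a Dox-inducible Gata6 cassette, and were grown on feeder cells with LIF. The induction rested on a transgene in cultured cells of 1 engineered line, and the transgene and the endogenous gene cannot be told apart in the values below. No value of an MNase library is in the columns used, which hold 1 entry per region, so depth is unknown here and no comparison between time points was made. The spread in every test below is between regions, not between cultures.

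Enhancers are stretches of DNA that raise transcription of a gene at a distance. A poised enhancer carries the priming mark H3K4me1 together with the Polycomb mark H3K27me3 and lacks the acetylation of an active one, and such enhancers in ES cells lie beside many regulators of later development. GATA6 drives the formation of primitive endoderm, the extraembryonic layer that lines the blastocyst cavity, and can bind its motif in closed chromatin, as other GATA factors do. The histone mark signal behind the poised label was not used here, so the label was taken as the authors gave it.

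Regions with the highest GATA6 motif scores, of which 4 are given, show what a near-perfect match looked like. They are printed 5′ to 3′ on the strand of the motif, with the 13 bases of the motif in capitals and 15 bases on each side, from the GRCm38 (mm10) reference, and are named by the gene with the nearest protein-coding transcript start. They lie at chr10:127180795-127180837 (Slc26a10, plus strand), chr2:173270539-173270581 (Pmepa1, minus strand), chr7:82187714-82187756 (Sh3gl3, plus strand) and chr9:111089876-111089918 (Lrrfip2, plus strand).
Slc26a10: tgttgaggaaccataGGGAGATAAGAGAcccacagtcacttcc
Pmepa1: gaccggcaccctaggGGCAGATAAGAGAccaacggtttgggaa
Sh3gl3: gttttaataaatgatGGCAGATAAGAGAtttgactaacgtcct
Lrrfip2: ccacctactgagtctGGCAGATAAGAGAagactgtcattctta

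The first had a score of 15.2 and the other 3 a score of 15.16, where the score is the log-odds match of the best FIMO hit and the lowest score among these regions was 6.23. All 4 share the core AGATAAG. The regions of Pmepa1 and Sh3gl3 lie in introns of these genes, that of Slc26a10 134 bp upstream of its start and that of Lrrfip2 between genes. The exact sequence was rarely repeated, because the 1880 regions with a full-length best motif held 1669 different sequences, of which 1496 occurred once. The most frequent ones, CAGAGATAAGAGA, GAGAGATAAGAGG and TTGAGATAAGGTC, were the best motif of 5 regions each. The core AGATAAG stood in 821 of the 1880 best motifs (43.7%), beside 38.2% over all GATA6 regions.

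Another 6 summit windows, chosen after their values were seen, show the range of contexts. Each gives the plus strand of GRCm38 from 100 bp before to 100 bp after the GATA6 summit, the base with the highest GATA6 signal, and capitals mark every GATA6 motif match, on either strand. The windows lie at chr6:122695180-122695380 (Nanog), chr10:62517720-62517920 (Srgn), chr3:127632781-127632981 (Neurog2), chr1:120605783-120605983 (En1), chr9:118480988-118481188 (Eomes) and chr19:42202413-42202613 (Sfrp5).
Nanog: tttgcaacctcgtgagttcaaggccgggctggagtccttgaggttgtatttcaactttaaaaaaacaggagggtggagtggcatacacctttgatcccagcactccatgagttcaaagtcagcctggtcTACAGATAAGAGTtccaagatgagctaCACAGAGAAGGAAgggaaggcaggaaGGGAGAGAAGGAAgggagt
Srgn: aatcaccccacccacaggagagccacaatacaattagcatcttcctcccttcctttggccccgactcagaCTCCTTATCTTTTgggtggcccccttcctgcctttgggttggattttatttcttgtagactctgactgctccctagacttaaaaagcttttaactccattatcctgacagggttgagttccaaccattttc
Neurog2: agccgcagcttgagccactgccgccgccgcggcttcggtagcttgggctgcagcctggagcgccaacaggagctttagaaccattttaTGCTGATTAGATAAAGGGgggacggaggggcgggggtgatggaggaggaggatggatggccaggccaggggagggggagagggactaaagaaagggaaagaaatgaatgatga
En1: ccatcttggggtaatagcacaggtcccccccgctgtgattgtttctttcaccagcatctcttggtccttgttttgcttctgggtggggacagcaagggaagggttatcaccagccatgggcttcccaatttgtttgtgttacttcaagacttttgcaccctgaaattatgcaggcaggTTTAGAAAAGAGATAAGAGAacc
Eomes: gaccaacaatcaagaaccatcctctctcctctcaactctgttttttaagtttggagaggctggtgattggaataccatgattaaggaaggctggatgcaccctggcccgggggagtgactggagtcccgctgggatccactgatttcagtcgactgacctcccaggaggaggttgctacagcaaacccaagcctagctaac
Sfrp5: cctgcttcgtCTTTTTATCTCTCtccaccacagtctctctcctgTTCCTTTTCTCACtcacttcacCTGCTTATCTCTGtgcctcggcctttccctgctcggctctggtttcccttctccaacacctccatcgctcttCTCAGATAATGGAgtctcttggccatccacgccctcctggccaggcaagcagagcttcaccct

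The window upstream of Sfrp5, a secreted WNT inhibitor, held 4 GATA6 matches, and that upstream of Nanog, a pluripotency factor, held 3. The windows near the proneural factor Neurog2 and the homeodomain factor En1 held 2 overlapping matches each, shown as 1 longer run of capitals. The window in an intron of Srgn, a proteoglycan gene, held 1. The window in an intron of Eomes, a T-box factor of gastrulation and trophoblast, held none, and the deposited motif columns gave no match for the whole of that region.

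GATA6 motifs were found within 100 bp of the summit (the summit window) of 1720 of the 2111 poised enhancers, or 81.5% (95% Wilson interval 79.8 to 83.1). In control windows of the same length 3 kb to each side, which overlap no GATA6 region, the share was 30.6% (29.2 to 32.1, n = 4024). Because the summit windows were centred on the GATA6 signal that also chose the regions, this contrast is a description. A GATA6 motif was also in 32711 of the 42403 windows of all GATA6 regions. Over all poised enhancers of the series, a set that includes the regions described here, it was in 4599 of 6185 windows. The word AGATAA alone, searched on both strands and contained in the GATA6 motif, was in 57.1% of the summit windows and in 9.79% of the control windows, beside 54.3% of the windows of all regions. Most windows held a single match: 1085 had 1, 501 had 2, 116 had 3, 16 had 4 and 2 had 5, while 391 had none. Over the whole region, which is usually wider than the window, the deposited motifs left 212 poised enhancers without any GATA6 match.

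The GATA6 motif was more frequent in the poised enhancers than in Transient GATA6-only active enhancers, which by the rule differ from them only in the histone class, by 0.62 on the log2 odds scale (SE 0.166, n = 882, adjusted p = 0.00242). The share there was 74.1% of the windows, and n counts the regions of the compared class in each test. Against the Transient poised enhancers bound by PTFs at d0 and without SOX17 the difference was larger, 1.80 (SE 0.153, n = 540, adjusted p = 9.97e-10), with a share of 55.7% of 540 windows. That class was set apart by PTF peaks. The paper already reports poorer GATA6 motifs at rapidly bound sites with PTFs than at those without. Against Transient GATA6-only primed enhancers, at 83.9% of 1495 windows, the difference was -0.24 with a 95% interval from -0.568 to 0.083, and did not pass the test (n = 1495, adjusted p = 0.178). Without windows that were at least 50% repeat, an alternative added after seeing the data, the last difference was -0.52 and passed (n = 1288, adjusted p = 0.0109), and with the G+C share of the window as covariate it was 0.073 and did not pass. Among regions closed at d0, where 36 active and 31 PTF-bound regions remained, the first 2 differences were 0.052 and 1.27 and did not pass. All adjusted p-values are from regressions across all 42403 regions with standard errors clustered by chromosome, adjusted over 21 contrasts by the Benjamini-Hochberg method, and 15 of these passed 0.05.

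The score of the best match also differed. In the poised enhancers it averaged 10.6 (SD 2.48, n = 1720) and was higher by 0.55 (SE 0.105, adjusted p = 0.000105) than in the active and by 1.09 (SE 0.133, adjusted p = 3.45e-07) than in the PTF-bound poised enhancers. Among regions closed at d0 these differences were 0.34 and 0.75 and did not pass. The limit given above for the class set apart by PTF peaks applies to the score too. The difference from the primed enhancers was 0.00162, with a 95% interval from -0.213 to 0.216 (n = 1254, adjusted p = 0.988). The core AGATAAG stood in 33.4% of the best motifs of active, 42.9% of primed and 32.1% of PTF-bound poised enhancers, beside the 43.7% given above.

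OCT4:SOX2 motifs, the composite element on which both PTFs bind side by side, were in 34.2% of the poised enhancers (95% interval 32.2 to 36.2), and in 31.0% (29.6 to 32.5) of their control windows. Over all GATA6 regions, which include PTF-bound ones, they were in 17725 of 42403 windows. The share was 75.7% in the PTF-bound poised enhancers, a difference of -2.59 on the log2 odds scale (SE 0.14, n = 540, adjusted p = 5.34e-13). These classes were set apart by PTF peaks, so the motif was not used by the rule but is the element that those factors recognise. The share was also higher in primed enhancers, 47.4%, with a difference of -0.80 (SE 0.136, n = 1495, adjusted p = 3.01e-05), although neither class has a called PTF peak. Against active enhancers, at 30.8%, the difference was 0.22 with a 95% interval from -0.143 to 0.58 and did not pass the test (n = 882, adjusted p = 0.254).

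SOX17 motifs, bound by an endoderm factor that GATA6 induces, were in 25.6% of the poised enhancers (23.8 to 27.5) and in 26.2% (24.9 to 27.6) of their control windows. They were less frequent than in primed enhancers, at 33.3% (difference -0.54, SE 0.13, n = 1495, adjusted p = 0.000945), and than in PTF-bound poised enhancers, at 36.1% (difference -0.72, SE 0.109, n = 540, adjusted p = 6.96e-06). Both compared classes lack SOX17 peaks too, but the PTF-bound class was set apart by PTF peaks, those of SOX2 among them. The limit given above for that class therefore applies to the SOX17 motif too. With the G+C share of the window as covariate the difference from primed enhancers was -0.30 and did not pass (n = 1495, adjusted p = 0.051), and among closed regions the difference from the PTF-bound class was 0.35. The difference from active enhancers, at 23.6%, was 0.16 with a 95% interval from -0.0902 to 0.401 (n = 882, adjusted p = 0.249), and with the motifs of whole regions and region width as covariate it was 0.29 and passed (n = 882, adjusted p = 0.0352). Over all GATA6 regions, many of which were bound by SOX17, the share was 43.1%.

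ESRRB motifs, bound by a nuclear receptor of the pluripotency network, were in 16.6% of the poised enhancers (15.1 to 18.3) and in 11.6% of their control windows. Active enhancers had 20.2% (difference -0.34, SE 0.144, n = 882, adjusted p = 0.0382), which did not pass within 50 bp of the summit, and primed enhancers 22.1% (difference -0.51, SE 0.0908, n = 1495, adjusted p = 4.9e-05). PTF-bound poised enhancers had 15.7%, a difference of 0.0943 with a 95% interval from -0.306 to 0.494 (n = 540, adjusted p = 0.66). With the motifs of whole regions and region width as covariate it was 0.39 and passed (n = 540, adjusted p = 0.023). The PTF peaks that set this class apart include those of ESRRB, so the same limit applies.

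**Figure D1:**
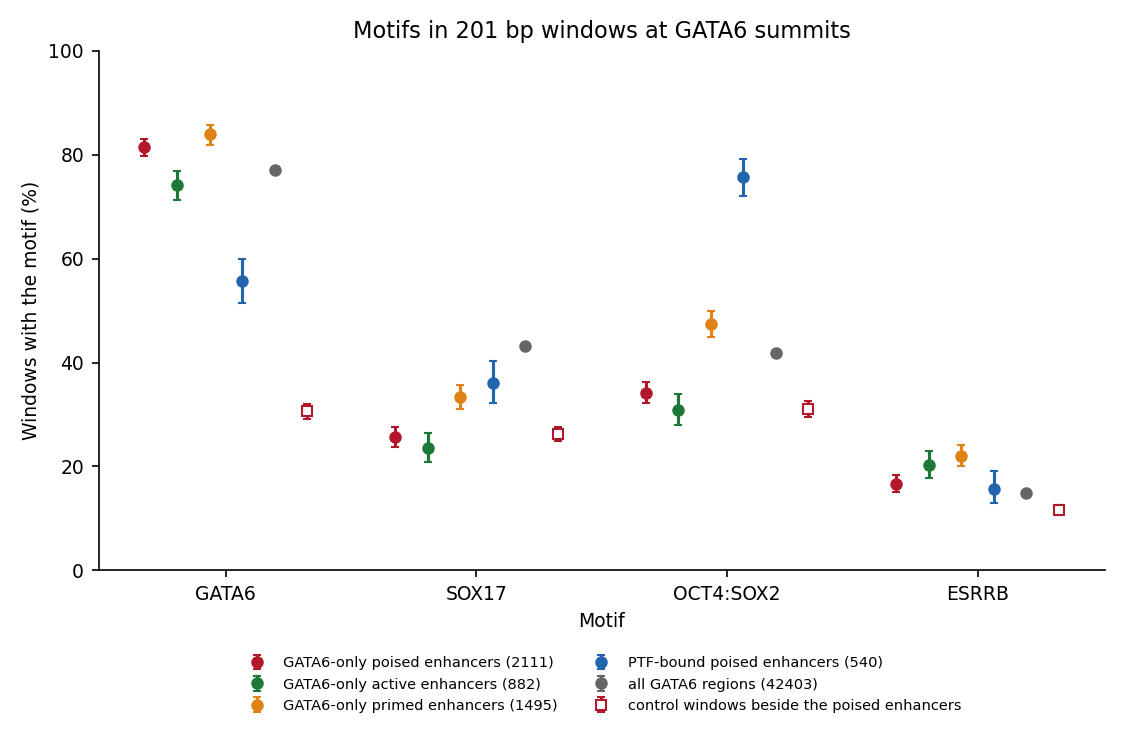
Share of summit windows, 100 bp to each side, (vertical axis, percent) holding each of 4 motifs, in the poised enhancers, 3 compared Transient classes and all GATA6 regions, with 95% Wilson intervals; open squares are the control windows 3 kb away. The poised enhancers stand at 81.5% for GATA6, against 30.6% in their control windows, and at 34.2% for OCT4:SOX2, where the PTF-bound class stands at 75.7%.

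Of the poised enhancers, 750 (35.5%) held a GATA6 motif and none of the other 3 motifs in the window, and 146 (6.92%) held none of the 4. Both a GATA6 and an OCT4:SOX2 motif were in 573 windows (27.1%), with a median of 45 bp between the centres of the best matches, and in 82 of these (14.3%) the centres were closer than 14 bp, so that the matches overlapped. The best GATA6 match lay close to the point of highest GATA6 signal. Its centre was a median of 28 bp from the summit, was within 25 bp in 801 of the 1720 windows (46.6%) and within 50 bp in 77.0%. The corresponding share within 25 bp was 45.0% in active, 45.1% in primed and 35.5% in PTF-bound poised enhancers, where the median distance was 38 bp. Best matches were on the plus strand in 50.5%. Because windows were centred on the GATA6 signal that also chose the regions, these positions are a description.

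**Figure D2:**
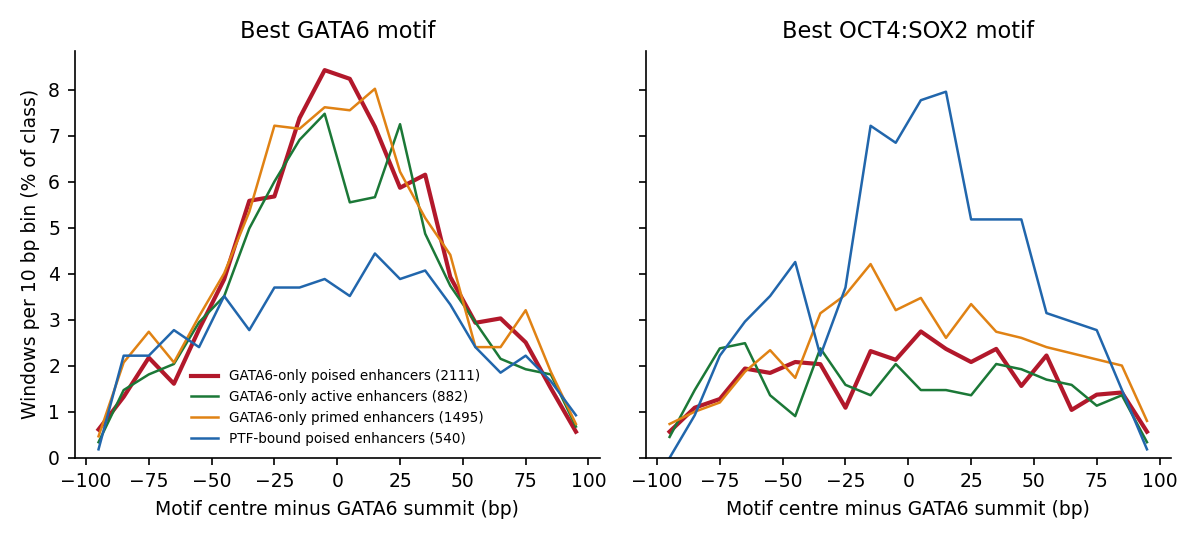
Position of the best GATA6 (left) and OCT4:SOX2 (right) motif relative to the GATA6 summit, in bp, as the percent of all windows of a class in each 10 bp bin. In the poised enhancers GATA6 matches gather at the summit while OCT4:SOX2 matches spread over the window, and in the PTF-bound class OCT4:SOX2 matches gather there.

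Accessibility at d0, an authors' class from ATAC-seq in untreated cells, divided the poised enhancers into 1372 moderate (65.0%), 697 closed (33.0%) and 42 accessible regions (1.99%). Among all GATA6 regions 61.3% were closed and 7.43% accessible. The active class had 4.08% closed regions, the primed class 55.9% and the PTF-bound poised class 5.74%. For Transient sites as a whole, the paper already reports more and better GATA6 motifs where accessibility was lower. The GATA6 motif differed along these classes within the poised enhancers too. It was in 89.2% of closed windows (86.7 to 91.3), in 78.3% of moderate ones (76.0 to 80.4) and in 57.1% of accessible ones (42.2 to 70.9). These intervals treat regions as independent, and the differences between the accessibility classes were not tested. The mean score of the best motif was 11.0 (SD 2.42, n = 622) in closed, 10.4 (SD 2.48, n = 1074) in moderate and 9.19 (SD 2.24, n = 24) in accessible windows. The mean number of matches was 1.41 in closed, 1.09 in moderate and 0.714 in accessible windows. The G+C share of the window ran the other way, with means of 49.0%, 51.5% and 54.8%, and its part in the motif difference within the poised enhancers was not tested.

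**Figure D3:**
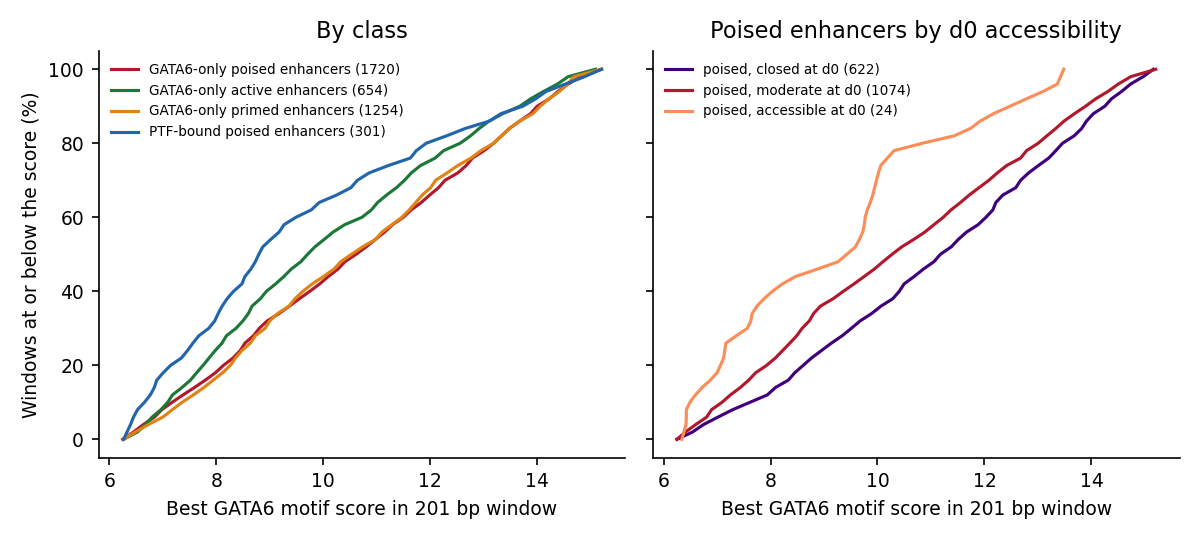
Cumulative percent of windows with a GATA6 motif (vertical axis) by the score of their best match (horizontal axis), for the poised enhancers and 3 compared classes (left) and for the poised enhancers by accessibility at d0 (right); numbers in brackets are windows with a motif. The poised and primed curves lie together, and closed poised enhancers lie to the right of moderate and accessible ones.

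CpG dinucleotides, whose density is linked to Polycomb recruitment, were denser around the poised enhancers than around the primed ones. The observed over expected CpG ratio within 500 bp of the summit averaged 0.264 (SD 0.125), and was higher by 0.0718 (SE 0.00292, n = 1495, adjusted p = 4.23e-15) than in primed enhancers, where it averaged 0.193 (SD 0.0933). The differences from active enhancers (0.0195, SE 0.00437, n = 882, adjusted p = 0.000508) and from PTF-bound poised enhancers (0.0167, SE 0.00493, n = 540, adjusted p = 0.00445) were small beside the spread between regions, and were -0.0325 and -0.0581 among closed regions. The mean ratio was 0.26 over all poised enhancers of the series, a set that includes the regions described here, and 0.228 over all GATA6 regions. Histone classes are known to follow CpG content, and the rule used such a class. CpG islands in a strict sense were rare: 37 poised enhancers (1.75%) had a ratio over 0.6 with G+C over 50%, against 0.68% of active enhancers, none of the 1495 primed ones (interval up to 0.256%) and 2.93% of all regions. As repeat, 4.83% of poised windows were at least 50% soft-masked, beside 6.48% of PTF-bound poised, 8.96% of active and 13.8% of primed windows, 4.09% over all poised enhancers and 20.6% of the control windows.

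A summit within 1 kb of an annotated transcript start was found for 340 of them (16.1%), 923 lay in introns (43.7%), 95 in exons (4.5%) and 753 between genes (35.7%). The share within 1 kb was 12.4% over all GATA6 regions and 15.3% over all poised enhancers, and 52.4% of the summits were over 10 kb from a protein-coding start. Of the 340, 253 were within 1 kb of a protein-coding start. The rule used a histone class, and the authors set promoters apart as another such class, so nearness to a start is not independent of the rule. Summits within 1 kb of a start were more frequent than in primed enhancers, at 6.62% (1.44 on the log2 odds scale, SE 0.122, n = 1495, adjusted p = 9.97e-10), and than in PTF-bound poised enhancers, at 10.6% (0.70, SE 0.199, n = 540, adjusted p = 0.0034), though at 0.5 kb the latter, 0.50, did not pass and among regions closed at d0 it was -0.47. The difference from active enhancers, at 14.2%, was 0.22 with a 95% interval from -0.149 to 0.583 (n = 882, adjusted p = 0.254). It was -0.0944 at 0.5 kb and -0.53 among closed regions. The median distance to the nearest protein-coding start was 11153 bp, against 8864 bp for active, 15419 bp for primed and 23500 bp for PTF-bound poised enhancers.

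The poised enhancers near a start differed from the others in CpG content. The 340 regions near a start had a median CpG ratio of 0.301, and the other 1771 one of 0.234. The GATA6 motif was in 79.4% of the former and in 81.9% of the latter, with mean scores of 10.8 (SD 2.42) and 10.6 (SD 2.49).

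**Figure D4:**
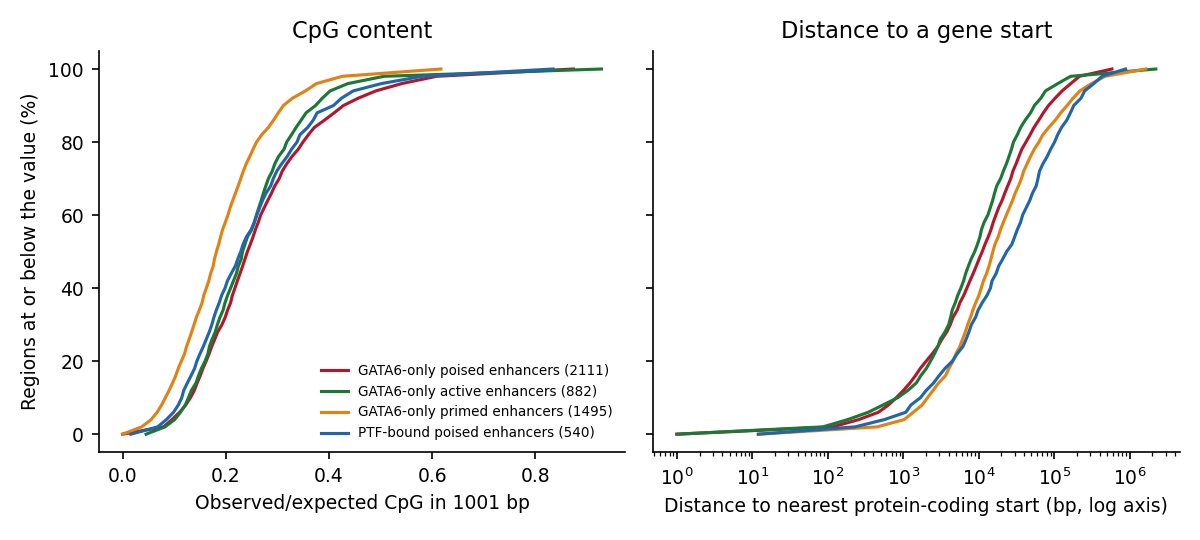
Cumulative percent of regions (vertical axis) by observed over expected CpG within 500 bp of the summit (left) and by distance to the nearest protein-coding transcript start in bp on a log axis (right), for the poised enhancers and 3 compared classes. The primed curve lies at lower CpG ratios than the other 3, and the active and GATA6-only poised curves lie closest to gene starts.

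A further 8 short words typical of other factor families were also searched on both strands of the summit windows, a choice made after seeing the data. GGGCGG, found in SP and KLF sites, was in 11.1% of poised windows (9.82 to 12.5) and 4.25% of their control windows, against 5.08% of primed, 10.8% of active and 6.45% of all windows. The mean G+C share of the windows was 50.8% in poised, 46.4% in primed, 50.3% in active and 45.7% in all regions. Its part in the count of this word was not tested, and control windows were not matched for it. CAGGTG, an E-box, was in 21.7% of poised windows, 15.5% of control windows and 15.6% of all windows, and in 20.4% of active, 20.1% of primed and 19.8% of PTF-bound poised windows. TGACTCA, the AP-1 site, was in 4.74%, against 3.53% in control windows and 7.82% over all regions. TAATTA, a homeodomain site, was in 3.51%, against 4.52% in control windows and 5.0% over all regions. AAGGTCA, a nuclear receptor element that overlaps the ESRRB motif, was in 7.91%, against 3.45% in control windows and 7.06% over all regions. CTTTGAT, a TCF/LEF site, was in 5.07%, GGAATG, a TEAD site, in 15.8%, and CCGGAA, an ETS site, in 4.03%, beside 3.01%, 11.0% and 2.49% of their control windows and 5.2%, 18.8% and 3.29% over all regions. A word in a window is a match of letters and not a bound site.

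The deposited Oct4 knockdown class compares GATA6 ChIP-seq after siRNA against Oct4 or a control, with knockdown and GATA6 induction started together. It covers only the penultimate of the time points listed above. Transient regions lose GATA6 over the time course, and dependence of their earlier binding on OCT4 was not tested. The paper also reports lower endogenous Gata6 expression on the knockdown, and the part of this in the classes was not tested. GATA6 binding was classed as decreased at 67 poised enhancers (3.17%), beside 6.25% of all regions, and as increased at 3, or 0.142% (0.0483 to 0.417), beside 8.57% of all regions. The remaining 2041 were unchanged. Among Transient regions as a whole, 7.28% were decreased and 0.289% increased, so the low share of increases was also that of the Transient cluster. The PTF-bound poised enhancers had 6.11% decreased regions, the primed 3.14% and the active 1.25%.

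An OCT4:SOX2 motif was in the window of 17 of the 67 decreased poised enhancers (25.4%) and of 34.4% of the unchanged ones. The decreased regions were wider, with a median of 607 bp against 425 bp, and 47.8% of them were closed at d0 against 32.6% of the unchanged ones. Their GATA6 motif share, 82.1%, was close to the 81.4% of the unchanged ones. The 3 increased regions, named after their values were seen, lay in introns of Pax7, a paired-box factor of neural and muscle progenitors, Mobp, a myelin gene, and Rad51b, a DNA repair gene. All 3 held a GATA6 motif in the window and were moderately accessible at d0.

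Developmental regulators were found beside a small share of the poised enhancers. The nearest protein-coding start, within 100 kb, belonged to a neural or ectoderm regulator for 23 of them (1.09%, interval 0.727 to 1.63), beside 0.288% of all regions, and 19 of the 55 genes of that list had at least 1. For regulators of mesoderm and gastrulation the count was 14 (0.663%, 0.395 to 1.11), beside 0.151%. For trophoblast regulators it was 10 (0.474%, 0.258 to 0.87), beside 0.151%, and for Hox genes 3 (0.142%, 0.0483 to 0.417), beside 0.0377%. These intervals treat regions as independent, although 3 of the 10 trophoblast regions lie beside Gcm1. The shares over all poised enhancers of the series were 0.792%, 0.372%, 0.42% and 0.129%, but that set includes the regions described here. Its counts were 49, 23, 26 and 8, of which the regions described here gave 23, 14, 10 and 3, in the same order. The neural list reached 1.3% in the PTF-bound poised, 0.34% in the active and 0.134% in the primed class. The mesoderm list reached 0.37% and 0.113% in the first 2 of these and none of 1495 primed enhancers (interval up to 0.256%). The trophoblast list reached 0.37% (0.102 to 1.34) in the PTF-bound poised, 0.227% in the active and 0.201% in the primed class. The Hox list reached 0.113% in the active class and had no region in the PTF-bound poised or primed class. The gene lists were chosen with earlier results of these data known and were not tested.

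The nearest neural examples were Neurog2, with a region 254 bp upstream of its start, Zic2, a zinc finger factor of the forebrain with a region 584 bp into the gene, and En1, a midbrain and hindbrain factor with a region 3465 bp downstream of its start. The Zic2 and Neurog2 surroundings were rich in CpG, with ratios of 0.589 and 0.783, and the En1 region was closed at d0 with a ratio of 0.132 and a GATA6 score of 14.97. For mesoderm they were Eomes at 2227 bp, Foxf2, a forkhead factor of splanchnic mesoderm, at 2330 bp, and Tbx20, a cardiac T-box factor, at 3437 bp. The Foxf2 region held 6 GATA6 matches and the Tbx20 region 1. Trophoblast regulators were represented by Gata2, another GATA factor, at 62 bp from its start, by Gcm1, which drives syncytiotrophoblast formation, at 1355 bp, and by Plet1 at 2741 bp. Gcm1 was the nearest gene of 3 poised enhancers. The Hox regions were nearest to Hoxd10, Hoxc13 and Hoxc4, at 3790, 5489 and 7284 bp.

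WNT pathway genes were nearest to 23 poised enhancers (1.09%, 0.727 to 1.63), beside 0.439% of all regions and 0.825% of all poised enhancers, a set that includes these 23. The WNT list reached 0.926% (0.396 to 2.15) in the PTF-bound poised, 0.602% (0.317 to 1.14) in the primed and 0.34% (0.116 to 0.995) in the active class. These intervals treat regions as independent, although 5 of the 23 lie beside Axin2. The nearest WNT genes numbered 15, from ligands (Wnt3, Wnt4, Wnt6, Wnt7b, Wnt8a and Wnt11) and receptors (Fzd10 and Lrp5) to inhibitors (Sfrp1, Sfrp5, Notum, Znrf3 and Axin2) and nuclear effectors (Tcf7 and Tcf7l2). Sfrp5, Notum, which removes a lipid from WNT ligands, and Wnt3, a ligand of gastrulation, had the nearest regions, at 261, 1658 and 1799 bp upstream of a start. Axin2, a negative feedback target of the pathway, was the nearest gene of 5 poised enhancers, the highest count of any gene together with Rnf220 and Sipa1l3. The 5 lay upstream of Axin2 within 25.2 kb, from 8009 to 33163 bp from its start, 3 moderate and 2 closed at d0. Of these, 4 held a GATA6 motif, with scores of 6.76, 7.26, 11.1 and 12.88, and the fifth had an OCT4:SOX2 match scoring 15.63 in place of one.

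Other lists stood near or below their background. Pluripotency genes were nearest to 9 poised enhancers (0.426%), beside 0.356%, with the nearest regions at 4944 bp from Dppa3, 6070 bp from Sall4 and 12209 bp from Nanog, and Nanog, Esrrb and Sox2 had 2 each. FGF pathway genes had 9 (0.426%), beside 0.358%, among them the ligand Fgf5 at 1479 bp, the ETS factor Etv5 at 4519 bp and the phosphatase Dusp4 at 4648 bp. The region in the Fgf5 intron was 1 of the 42 accessible ones. Genes of primitive endoderm had 6 (0.284%), beside 0.401%, in 5 genes that included Gata6 itself, with a region 3680 bp upstream, Foxa2, an endoderm forkhead factor, at 6615 bp and Srgn at 9605 bp. Basement membrane genes had 4 (0.189%), beside 0.387%, near Hspg2, Itga6 and Sparc. BMP, Nodal and TGF-beta genes had 5 (0.237%), beside 0.366%, with Gdf6, a BMP ligand, at 1058 bp, the inhibitor Smad7 at 4222 bp and Id4 at 71203 bp. Metabolic housekeeping genes had 2 (0.0947%), near Eno1 and Ywhaz, beside 0.104%.

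**Figure D5:**
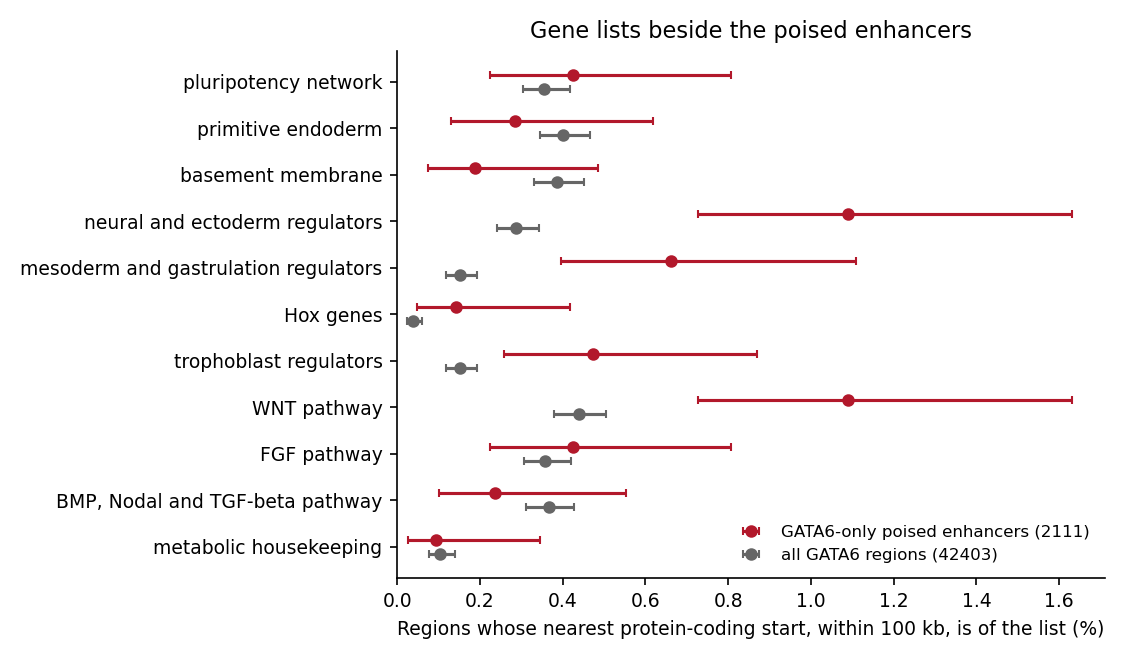
Percent of regions (horizontal axis) whose nearest protein-coding start lies within 100 kb and belongs to each of 11 gene lists, for the 2111 poised enhancers and all 42403 GATA6 regions, with 95% Wilson intervals. Neural and ectoderm regulators and WNT pathway genes both stand at 1.09% in the poised enhancers, against 0.288% and 0.439% over all regions.

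Most genes had a single poised enhancer. The 2111 regions had 1766 nearest genes, of which 1485 had 1 region, 232 had 2, 37 had 3, 9 had 4 and 3 had 5. After Axin2, the ubiquitin ligase Rnf220 had 5 regions over 74.2 kb and Sipa1l3 had 5 over 105 kb, in their introns. With 4 each, the rule next named 3100002H09Rik, Aff1, a transcription elongation factor, Ebf2, a factor of mesoderm and neurons, Gse1, Myc, a growth regulator, Nol4l and Rragc. Of the Ebf2 regions, 1 lay 70 bp and another 246 bp upstream of the nearest of its annotated transcript starts, which are not the same start, with CpG ratios of 0.68 and 0.652. The Myc regions lay 53836 to 228813 bp downstream within the host gene Pvt1, and all 4 held GATA6 motifs, with scores from 8.22 to 13.67. In the Nol4l set, 1 of the 4 regions was decreased on Oct4 knockdown, and the other 3 were unchanged.

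Members of the class often had another within reach. In 569 (27%) the nearest other poised enhancer of the class was at most 50 kb away, and in 208 (9.85%) at most 10 kb, each counted within its own class. The shares within 50 kb were 13.5% for primed, 23.8% for active and 7.78% for PTF-bound poised enhancers, and those within 10 kb 4.55%, 9.75% and 4.44%. The classes differ in their number of regions, and these shares were not tested. Joined by gaps of at most 50 kb, they formed 258 runs of 2 or more, 42 of 3 or more and 8 of 4 or more. The nearest GATA6 region of any kind was a median of 9070 bp away and was Transient in 50.5%, Early&Constant in 25.6% and Late in 23.9%.

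The 2111 poised enhancers described here made up between 3.45% and 7.23% of the GATA6 regions on each autosome, with the highest share on chromosome 8 and the lowest on chromosome 3. On chromosome X they made up 0.323%, 4 of 1238 regions. Of these 4, 3 had Bcor, a Polycomb-associated corepressor, as nearest gene and the other Cited1. Chromosome X held 0.189% of these poised enhancers (0.0737 to 0.486) and 0.162% of all poised enhancers of the series, against 1.13% of active and 3.34% of primed Transient GATA6-only enhancers and 2.92% of all regions. This was observed after seeing the data and was not tested.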

How the data were processed

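The deposited table holds 1 entry per GATA6 region, with 30 columns used here. As the methods state, the authors mapped reads to mm10 with Bowtie2, called GATA6 peaks with MACS2, clustered signal by k-means into classes, and scanned regions with FIMO; the deposited score is the log-odds of the best match, and positions and classes are the authors' own. A further 59 columns hold signal of other assays or time points, which no label here matches, and 12 motif group and 4 mean score columns were likewise not used. Depth is therefore unknown. The Wilson intervals of shares cover counting error only, and the intervals of the contrasts rest on standard errors clustered by chromosome.

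Motif matrices were recovered from the deposited best matches and their scores (largest residual 5.07e-05), and a rescan gave the deposited presence in 100% of regions for all 4 motifs. Sequence came from GRCm38 and genes from GENCODE release M21. The named regions are the 5 with the highest GATA6 score (1 is not reported here), up to 3 nearest genes of each list, and the 10 genes nearest to the most members; the members, lists and rules were chosen with earlier results of these data known. Logistic and linear regressions with a 5-level class factor were fitted in statsmodels 0.14.6 on all regions, tested on simulated data first, with a t distribution on the number of chromosomes minus 1. The alternatives were other windows, distances, covariates and subsets of regions.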

Additional observations from a re-analysis of the deposited data

How the results depend on the processing

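No paired analysis was possible because no library enters any test, and for the same reason no replicate could be left out. Of 180 alternative values for the 21 contrasts, 155 kept their direction and their side of the threshold. All 21 did so without chromosome X and with standard errors of independent regions, and all 12 motif contrasts did so with only motifs at or above the median score. With the alternatives restricted to regions closed at d0, 697 poised, 36 active, 31 PTF-bound and 836 primed regions remained, and 10 of 21 kept their call. There, GATA6 motif differences were 0.052 (active) and 1.27 (PTF-bound), score differences 0.34 and 0.75, SOX17 -0.22 (primed) and 0.35 (PTF-bound), ESRRB -0.27 (active), CpG ratio -0.0325 and -0.0581, and gene starts -0.53 and -0.47 (active and PTF-bound), none past the threshold. The motif score difference from primed enhancers was near 0 and changed sign with windows of 50 bp (-0.0204) and 200 bp (-0.08) to each side, without summits near a start (-0.0612) and, an alternative added after seeing the data, without windows at least 50% repeat (-0.056); without these repeats the GATA6 motif was less frequent than in primed enhancers (-0.52, n = 1288, adjusted p = 0.0109). With G+C as covariate that motif difference was 0.073, and the SOX17 difference from primed enhancers (-0.30) gave n = 1495 and adjusted p = 0.051. The ESRRB difference from active enhancers did not pass in windows of 50 bp to each side (-0.30) or without summits near a start (-0.34, n = 757, adjusted p = 0.0668). With whole regions and width as covariate, SOX17 against active (0.29) and ESRRB against PTF-bound enhancers (0.39) passed. Gene starts against active enhancers gave -0.0944 at 0.5 kb and passed at 2 kb (0.29), and against PTF-bound enhancers 0.50 at 0.5 kb did not pass. Causes were not tested.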
